A study of Mus with 4 samples.

Results

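The genes described here are 8 genes of cytokinesis that have been linked to hepatocyte ploidy. They are Prc1, Kif23, Racgap1 and Kif20a of the central spindle, Ect2, Anln and Cit of the contractile ring, and Cep55 of the midbody. They were chosen by name, as genes downstream of the repressors E2F7 and E2F8 in hepatocyte polyploidy, and all 8 were found among the 21887 protein-coding genes of the mouse annotation. TBX3 is a T-box repressor, and the question was whether it was also found directly at these genes. In the ChIP-Seq data, TBX3 carrying an HA tag was overexpressed in primary mouse hepatocytes and pulled down with an anti-HA antibody, giving 2 TBX3 ChIP libraries beside 2 Input libraries of chromatin that was not immunoprecipitated. The cells of all 4 libraries carried the same construct, pT2-SVNeo-EF1-eGFP-P2A-Tbx3-HA, in which the EF1 promoter drives eGFP and TBX3-HA together. No library of cells with the endogenous level of TBX3, or without the tag, was analysed here.

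Cytokinesis begins when bundled antiparallel microtubules form the central spindle between the separating chromosomes. The central spindle recruits the exchange factor ECT2, which activates RhoA at the cell equator, and RhoA drives assembly of the actomyosin contractile ring. The ring closes down to the midbody, where abscission separates the daughter cells. Hepatocytes often skip or abort this step and become binucleate or polyploid. E2F7 and E2F8 are atypical E2F factors that repress cell cycle and cytokinesis genes and favor polyploidy in the liver.

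The authors deposited 1 genome-wide track in which each value is the −log10 of a Poisson p-value for the ChIP reads over a base. The p-value is against an expected level, taken here as the larger of a genome-wide level and the Input levels. Each value of the track is called the score. The track holds no value per library, and neither the labels nor the methods state which of the libraries entered it. No error between replicates can therefore be given for any gene. The numbers of reads behind the scores were inferred, since each score is given by a whole number of ChIP reads and an expected level. The genome-wide expected level was 2.43 reads over a base, and the inferred total was 30083970 ChIP reads on the 21 main chromosomes. At that level 8 reads gave a score of 3.02 and 11 reads a score of 5.01. A base therefore needed at least 11 reads to reach the cutoff of 5, which is 4.52 times the expected level where that level was the genome-wide one. Bases with fewer reads could not reach the cutoff at this depth, and a called region also had to meet a minimum length, given below. An adjusted p, by the Benjamini-Hochberg method over all bases of the track, was 0.05 at a score of 5.46. A called region is a run of bases scoring 5 or more that spans 200 bp or more once gaps of 30 bp or less are bridged, and the genome held 125 of them. Each gene was read in 3 windows, within 1 kb of either gene end, inside the gene, and in the 10 kb outside each end. The annotation used here gives no strand, so a gene end is named as the lower or the higher coordinate and is not called a promoter. Positions are those of GRCm38. Intervals on read numbers are exact 95% Poisson intervals, which cover counting error only and do not allow for each value being the highest of its window. They take each read as independent, so they are too narrow where both reads of a pair were counted. Counting each read pair once was approximated by halving the inferred read number, rounded down, and the expected level. The track does not identify pairs.

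Ect2 was the only one of the 8 genes with a called region. It had that region within 1 kb of a gene end, inside the gene and in the 10 kb outside, because 1 region crossed the gene end and counted in each window. Among all protein-coding genes, 0.311% had a called region within 1 kb of an end, 0.347% inside the gene and 0.48% in the 10 kb outside. No called region was found at Prc1, Kif23, Racgap1, Kif20a, Anln, Cit or Cep55 in any window.

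**Figure D1:**
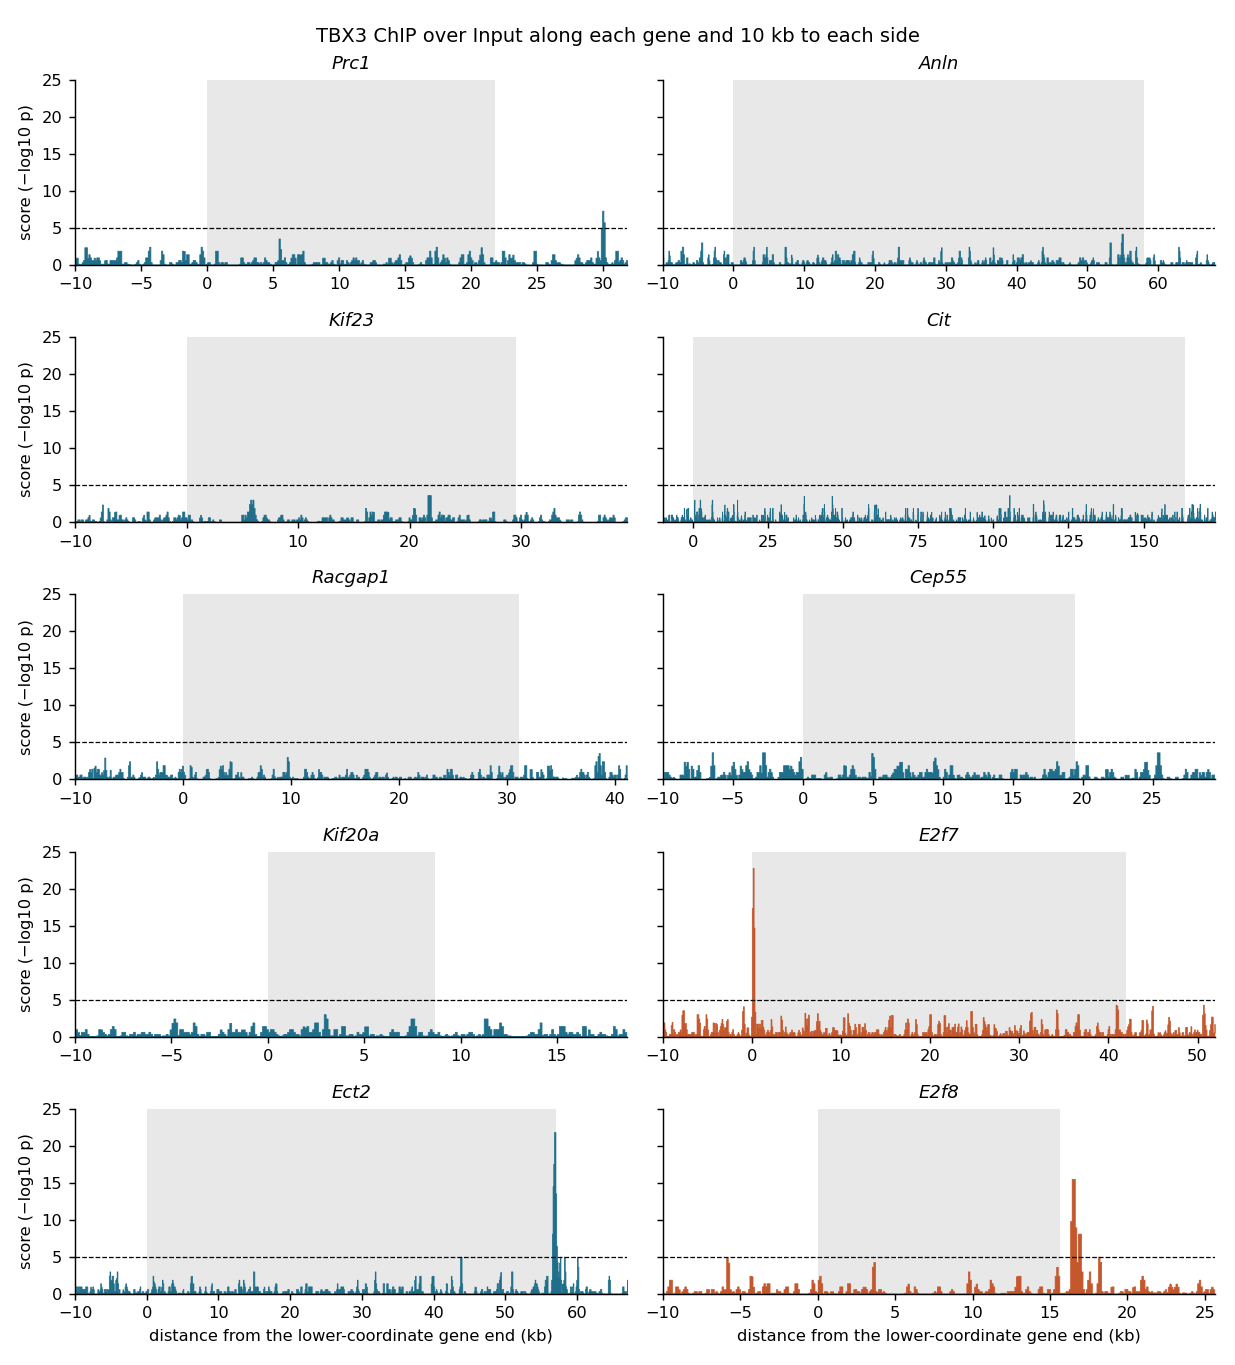
The highest score in each 100 bp is plotted against the distance from the lower-coordinate gene end, in kb, for the 8 cytokinesis genes (blue) and for E2f7 and E2f8 (orange). Gray spans the gene and the dashed line is the cutoff of 5. Ect2 reaches 21.85 at its higher end, Prc1 reaches 7.31 at a position 8160 bp past its higher end, and the other 6 cytokinesis genes stay at or below 4.20.

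Ect2 (gene 13605) encodes the guanine nucleotide exchange factor that activates RhoA for contractile ring assembly. It lies on chromosome 3 from 27097222 to 27154253, a length of 57032 bp. The called region spans 27153768 to 27154408 and is 641 bp long. Of these bases, 486 were in the gene and 155 lay past its higher-coordinate end. The summit at 27154030 was inside the gene, 223 bp from that end. The score there was 21.85, with an adjusted p of 1.76e-16. It came from 29 ChIP reads (95% interval 19.4 to 41.6) against 2.43 expected, which is 11.9 times the expected level (7.98 to 17.1). The score that the lower bound of this interval would give was 11.66, above the cutoff where each read was taken as independent. With each read pair counted once the score at the summit was 11.33, and no interval was computed for it.

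A called region spans 200 bp or more by definition, so the breadth of the Ect2 region is not separate support for it. A mean of 19.4 reads covered its bases, 7.95 times the expected level, and 470 bases held at least 15 reads. Summed over the region this was the coverage of 82.8 reads of 150 bp, where 10.4 were expected. Of the changes in inferred read number along the region, 94.2% were by 1 read and the largest was by 2 reads. The inference itself favored small changes between neighboring stretches, so these 2 values are not independent of the method. The expected level was at the genome-wide value at each base of the region. The opposite end of Ect2 reached 2.44, from 7 reads. Its window had a mean of 1.58 reads and that of the higher end a mean of 8.98, beside a mean of 1.40 over chromosome 3.

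The Ect2 end is shared with another gene. The long noncoding RNA gene 1700125G22Rik (gene 76657) is annotated from 27154026 to 27157019, so its lower end was 4 bp from the summit and inside Ect2. The scores cannot be assigned to either gene, because they overlap there. The 20 reads just past the Ect2 end, which gave the highest outside score of 12.60, belonged to the same region and lay 2 bp past the end. Around the region, 4 further stretches reached 5.01, from 11 reads each. They lay 13238 bp inside the gene and 593, 1227 and 3041 bp past its higher end, and each was shorter than the minimum length. Leaving the first 1 kb outside the gene aside, the highest outside score of Ect2 was 5.01 and no region was called there.

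By score the Ect2 region ranked 20 of the 125 called regions, and 4 regions had that same score, itself included. It was among the longer regions, since 8 regions were as long or longer and the median length was 315 bp. Among the protein-coding genes, 15 had an end score as high as Ect2, itself included, which is 0.0685%. Among those of chromosome 3, Ect2 was the only such gene. The mean score over both end windows was 2.57, and 0.0183% of genes had one as high. Chromosome 3 had 0.810 times the read depth of the median autosome in this track.

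**Figure D2:**
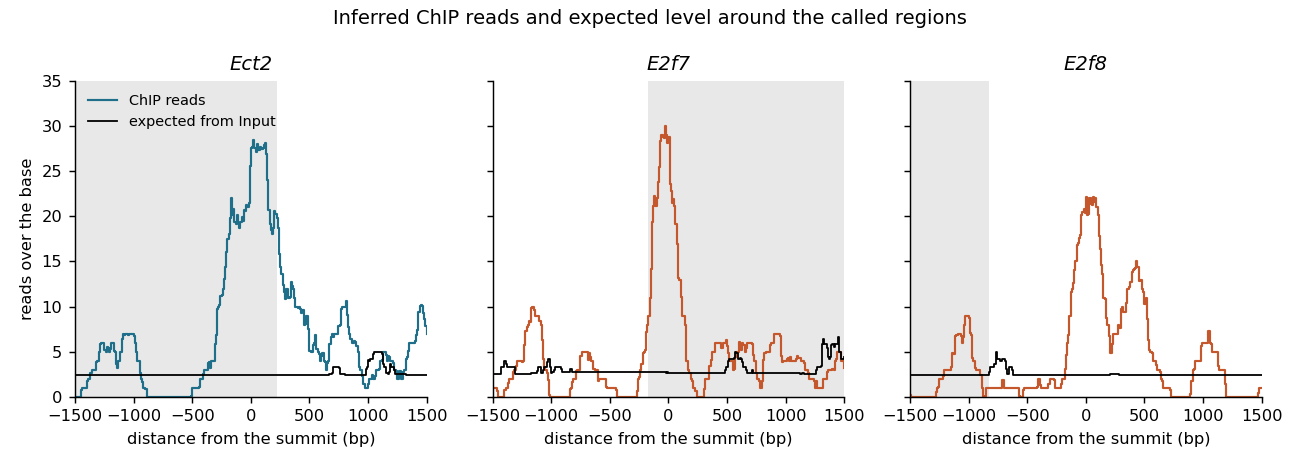
The inferred ChIP reads over each base (colored) and the expected level (black), averaged in bins of 10 bp, are plotted against the distance from the summit of the called regions at Ect2, E2f7 and E2f8, in bp. The expected level is the larger of the genome-wide level and the Input levels. Across the called regions at Ect2 and E2f8 it is the genome-wide level of 2.43 reads. Gray marks the gene. The summits reach 29, 31 and 23 reads over the base, and the Ect2 region is the widest of the 3, at 641 bp.

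E2f7 and E2f8, the genes at which the study examined TBX3, give a measure of the Ect2 values within the same track. The E2f7 region was 269 bp long with a score of 22.79, from 31 reads (21.1 to 44.0) against 2.69 expected. The E2f8 region was 299 bp long with a score of 15.53, from 23 reads (14.6 to 34.5) against 2.43 expected. The read number at Ect2 lay between them, and its interval overlapped both, so the order of the 3 summits is not resolved. A difference in height was not tested. Chromosome 10, which holds E2f7, had 1.41 times the read depth of the median autosome. The depth was 0.907 times for chromosome 7 with E2f8 and 0.810 times for chromosome 3 with Ect2. The E2f7 summit lay 174 bp inside its gene end, much like that of Ect2, whereas the E2f8 summit was 830 bp outside. The mean enrichment was 8.25 times the expected level at E2f7 and 7.33 times at E2f8, close to the 7.95 of Ect2. The Ect2 region held more reads than either because it was longer, 82.8 against 39.8 at E2f7 and 35.6 at E2f8 in coverage of 150 bp reads. With each read pair counted once, as approximated by halving, the scores were 11.33 at Ect2, 11.83 at E2f7 and 8.14 at E2f8.

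The 4 central spindle genes had gene-end scores of 1.42 to 2.44, and none was above the median of all protein-coding genes, 2.44. Prc1 (gene 233406) encodes the microtubule crosslinker that bundles the central spindle, and its end score was 2.44 from 7 reads (2.81 to 14.4). Kif23 (gene 71819), the kinesin subunit of centralspindlin, had 1.42 from 5 reads (1.62 to 11.7). Racgap1 (gene 26934), the GTPase-activating subunit of centralspindlin and the partner that binds ECT2, had 1.90 from 6 reads (2.20 to 13.1). Kif20a (gene 19348), the kinesin that carries the chromosomal passenger complex to the central spindle, also had 1.90 from 6 reads. The adjusted p of these 4 values ranged from 0.428 at Prc1 to 0.773 at Kif23. Among protein-coding genes, 50.5% had an end score as high as Prc1, 74.5% as high as Racgap1 or Kif20a and 91.1% as high as Kif23.

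Inside these 4 genes the highest scores were 3.55 at Prc1, 3.65 at Kif23, 3.02 at Racgap1 and 3.02 at Kif20a, from 8 or 9 reads. A score of at least 3 was found inside 61.9% of protein-coding genes, and the highest score inside a gene increased with gene length (Spearman correlation 0.71 across 21887 genes, which are not independent replicates). The bases at 3 or above made short stretches, 24 bp in Kif20a and at most 85 bp in Kif23.

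Prc1 was the only one of the 8 genes besides Ect2 with a score of at least 5 in any window. In the 10 kb outside, 10.3% of protein-coding genes reached that score, and 2 of the 8 cytokinesis genes did. The Prc1 value was 7.31, from 14 reads (7.65 to 23.5) against 2.43 expected, with an adjusted p of 2.64e-03. It stood at 80324419 on chromosome 7, which is 8160 bp past the higher end of Prc1 at 80316259. The stretch at 3 or above was 158 bp long, and no region of 200 bp was called. Its position was much closer to other genes. Rccd1 (gene 269955, 80294591 to 80324687) covered it, with its higher end 268 bp away. The lower end of the Unc45a gene (gene 101869), at 80325292, was within 1 kb. Rccd1 also overlaps nearly all of Prc1, so reads inside Prc1 cannot be assigned to either gene. Within 5 kb of Prc1 the highest outside score was 2.44, and with each read pair counted once the stretch scored 4.39. In the 10 kb outside, 5 of the 8 genes reached 3, beside 74.8% of all protein-coding genes. Around the other central spindle genes, the scores were 2.37 at Kif23, 3.55 at Racgap1 and 2.44 at Kif20a, from 7, 9 and 7 reads.

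**Figure D3:**
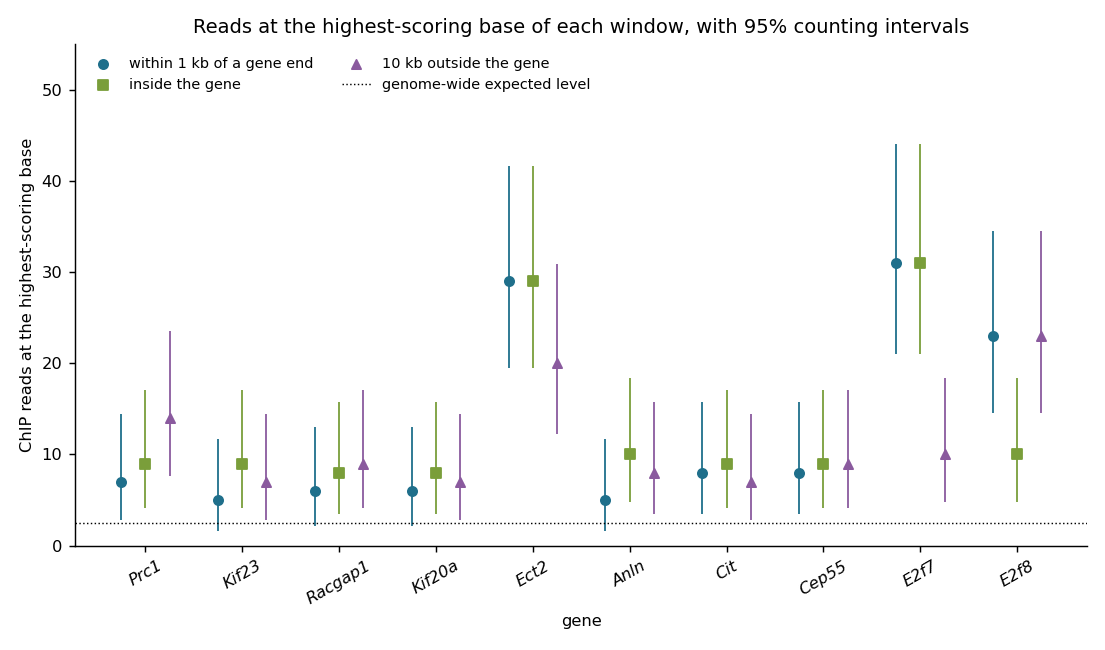
The number of ChIP reads at the highest-scoring base within 1 kb of a gene end, inside the gene and in the 10 kb outside is plotted for each gene, with bars for the 95% Poisson interval. The dotted line is the genome-wide expected level of 2.43 reads. Ect2, E2f7 and E2f8 hold 23 to 31 reads at a gene end, and the other 7 cytokinesis genes hold 5 to 8.

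The other 2 ring genes differed from Ect2. Anln (gene 68743) encodes anillin, the scaffold that links RhoA, actin, septins and myosin in the ring. Its end score was 1.42 from 5 reads (1.62 to 11.7), with an adjusted p of 0.773, and its opposite end reached 1.00 from 4 reads. Cit (gene 12704) encodes citron kinase, which stabilizes the ring and the midbody. Its end score was 3.02 from 8 reads (3.45 to 15.8), with an adjusted p of 0.298, and 29.0% of protein-coding genes had a score as high. By the mean score over both end windows of Cit, 74.3% of genes were as high. Those windows held 0.624 times the mean reads of their chromosome. The upper bounds for both genes lay below the lower bound for Ect2, 19.4 reads, where each read was taken as independent. Intervals with each read pair counted once were not computed.

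Anln had the highest score inside the gene of the 7 genes without a called region. It was 4.20, from 10 reads (4.80 to 18.4) against 2.50 expected, with an adjusted p of 0.132, and it lay 3124 bp from the higher end. A score as high was found inside 29.3% of protein-coding genes. In Cit, the longest of the 8 genes at 163730 bp, the highest score inside was 3.65, from 9 reads, at 58408 bp from the nearest end. All 13 stretches of Cit at 3 or above were inside the gene, and none was longer than 39 bp. In the 10 kb outside, Anln reached 3.02 and Cit 2.44. Anln and Kif23 lie on chromosome 9, which had 0.746 times the read depth of the median autosome, and the part of depth in their low scores was not tested. Relative to the mean of that chromosome, the end windows of Anln held 0.762 times and those of Kif23 1.16 times the reads. Among the protein-coding genes of chromosome 9, 83.0% had an end score as high as Anln or Kif23.

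Cep55 (gene 74107) encodes the midbody protein that recruits the abscission machinery, including ALIX and TSG101. Its end score was 3.02 from 8 reads (3.45 to 15.8), with an adjusted p of 0.298, at 184 bp outside the lower end. The highest score was 3.55 inside the gene and 3.65 in the 10 kb outside, both from 9 reads. Cep55 had 11 stretches at 3 or above, the longest of 60 bp, and none reached 4. Among protein-coding genes, 29.0% had an end score as high, 47.0% an inside score as high and 46.6% an outside score as high. By the mean score over the window these shares were 10.6% at the ends, 19.4% inside and 3.54% in the 10 kb outside. Chromosome 19, on which it lies, had 1.19 times the depth of the median autosome, and the part of that depth in these values was not tested. Among the protein-coding genes of chromosome 19, 47.9% had an end score as high, 62.0% an inside score and 73.9% an outside score.

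Across the 8 genes, 1 had an end score of at least 5, where 3.6% of all protein-coding genes had one, and 3 had a score of at least 3, where 29.1% did. Inside the gene all 8 reached 3, beside 61.9% of all protein-coding genes, and the part of gene length in this was not tested. Without Ect2 the median end score was 1.90 and the highest 3.02, beside a median of 2.44 over all protein-coding genes. Inside the gene the median of these 7 was 3.55, beside 3.02 over all genes, and in the 10 kb outside it was 3.02, beside 3.55. The read numbers at the 7 gene ends, 5 to 8, had intervals that overlapped each other, so their order is not resolved. At the scores that 5 to 8 reads give at the genome-wide level, neighboring steps held 2790, 4196, 3877 and 2565 of the protein-coding genes.

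**Figure D4:**
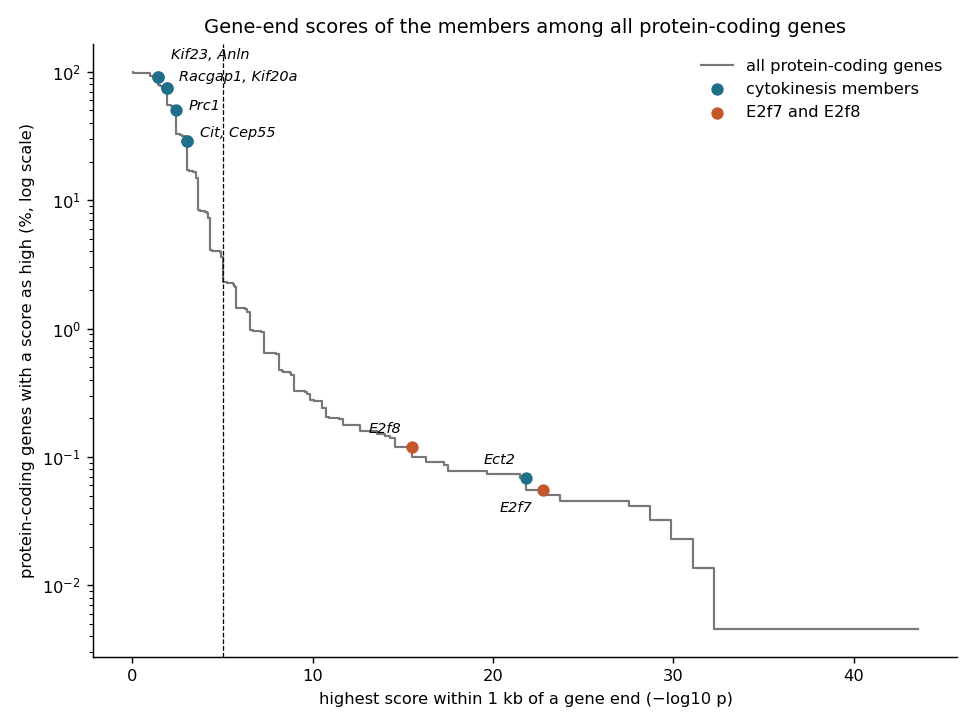
The share of protein-coding genes with a gene-end score at least as high (percent, log axis) is plotted against that score. The gray line covers all 21887 protein-coding genes, the points mark the 8 cytokinesis genes (blue) and E2f7 and E2f8 (orange), and the dashed line is the cutoff of 5. Ect2 lies at 0.0685%, beside E2f7 and E2f8, and the other 7 cytokinesis genes lie between 29.0 and 91.1%.

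A further 37 genes of cytokinesis, drawn from the chromosomal passenger complex, the central spindle kinases, the contractile ring, and the midbody with the abscission machinery, were read in the same way. None of the 37 had a called region in any window. Among all protein-coding genes, 0.311% had one within 1 kb of an end, 0.347% inside and 0.48% in the 10 kb outside. Of the 37, 1 had an end score of at least 5, which is 2.7% beside 3.6% of all protein-coding genes. The median end score of the 37, 2.44, equaled that of all protein-coding genes. The gene past the cutoff was Diaph1, which encodes the RhoA-activated formin that assembles actin filaments in the ring. It reached 5.75 at 132 bp inside its higher end, from 12 reads against 2.43 expected, with an adjusted p of 0.0307. Among protein-coding genes, 2.12% had an end score as high. With each read pair counted once, Diaph1 would be below the cutoff, since 14 reads at Prc1 gave 4.39 at the same expected level. The next highest end score of the 37 was 4.31 from 10 reads, at Cdk1, the mitotic kinase whose activity must fall before cytokinesis. The lowest end score, 1.00 from 4 reads, was shared by Pdcd6ip (ALIX) and Tsg101, the abscission factors that CEP55 recruits, and by Rab11fip3, which directs recycling endosomes to the midbody.

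By role, the median end score was 2.73 for the 4 genes of the chromosomal passenger complex, 3.33 for the 6 of the central spindle and its kinases, 2.28 for the 14 of the contractile ring, and 1.90 for the 13 of the midbody and abscission. Inside the gene, 8 of the 37 reached 5, which is 21.6% beside 13.9% of all protein-coding genes. These were Kif4, Cdk1, Diaph1, Diaph3, Rock1, Rock2, Septin9 and Chmp4b, and the highest was Rock1 at 6.51 from 13 reads. Kif4, Cdk1, Rock2 and Chmp4b were at 5.01, below the score of 5.46 at which the Benjamini-Hochberg adjusted p was 0.05. In the 10 kb outside, Cdk1 reached 5.24, also below 5.46. It was the only 1 of the 37 to reach 5 there, beside 10.3% of all protein-coding genes. The 8 genes that reached 5 inside are 17767 to 485891 bp long, and the highest score inside a gene rose with gene length, as given above. The part of length in the share of 21.6% was not tested.

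**Figure D5:**
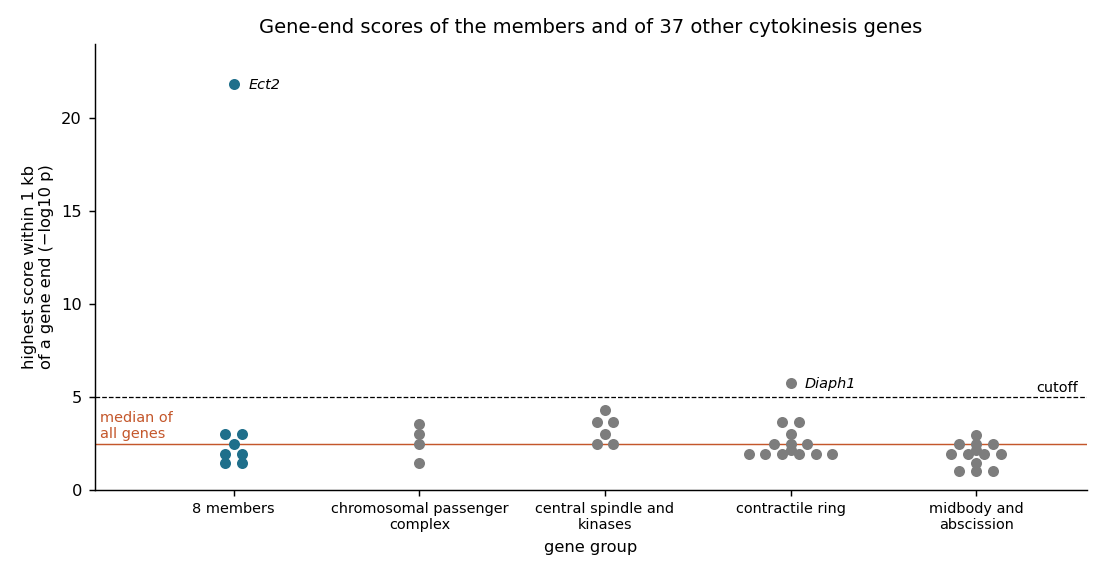
The highest score within 1 kb of a gene end (−log10 p) is shown for each of the 8 cytokinesis genes (blue) and of 37 other cytokinesis genes by role (gray), with points of equal score set side by side. The dashed line is the cutoff of 5 and the orange line the median of all protein-coding genes, 2.44. Ect2 at 21.85 stands apart, and Diaph1 at 5.75 is the only other gene above the cutoff.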

How the data were processed

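Mouse primary hepatocytes overexpressing TBX3-HA were profiled by ChIP-Seq, with 2 TBX3 ChIP and 2 Input libraries, described as biological replicates. The authors used Bowtie 2 for mapping, Samtools for sorting and MACS2 subcommands for scoring ChIP against Input. The submitters' processing notes name the build mm10 and no versions. The deposited values are the −log10 of MACS2 Poisson p-values in 1 track of 110667813 intervals. Duplicate handling and the pooling of replicates are not given in the sources used here, and the table had 0 further per-sample columns. The depth of each library is unknown.

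The 8 genes and the list of 37 other cytokinesis genes were chosen with earlier results of these data known, so neither list gives independent support. Genes came from RefSeq GRCm38.p6, whose coordinates are those of mm10, and all names matched. Read numbers were inferred as the Poisson pair of a whole number of ChIP reads, extended to 150 bp, and an expected level taken as the largest of the genome-wide level and the Input over 150 bp, 1 kb and 10 kb. A pair was found for 99.0% of the bases scoring 5 or more. The inference and the region calling were run on simulated reads with an even background and the levels fitted to this track. Such reads follow the assumed Poisson model, so that run does not test how well the model describes these libraries. P-values were adjusted over 2727620324 bases. The deposited track permits no test between replicates.

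The genes named are the 8 cytokinesis genes, E2f7 and E2f8, any gene with an end within 1 kb of a base that reached 5 in a window of the 8, and, from the 37, genes with an end score of at least 5 and the highest and lowest. Rock1 and the other genes that reached 5 only inside or outside the gene were named after their values were seen. The alternatives varied the cutoff, minimum length, gap, windows, gene set and counting of read pairs. The last of these was the halving described above and not a recount of pairs. No genome sequence was used here, so no sequence is shown and motifs were not searched. The scripts ran in Python 3.11.15 with scipy 1.17.1, numba 0.67.0, numpy 2.4.6, matplotlib 3.10.9 and pandas 2.3.3.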

Additional observations from a re-analysis of the deposited data

How the results depend on the processing

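Ect2 alone of the 8 genes had a called region within 1 kb of a gene end and inside the gene under all alternatives run. These were cutoffs of 3 and 10, an adjusted p of 0.05, a minimum length of 100 bp and gaps of up to 100 bp. Each read pair was also counted once, and for the gene ends windows of 500 bp and 2 kb were used. Of all protein-coding genes, 0.0731% had a called region within 1 kb of an end at a cutoff of 10 and 1.14% at 3. Inside the gene these shares were 0.0868% and 1.63%. In the 10 kb outside, the count was 1, and it became 2 with a minimum length of 100 bp, which added Prc1 and also raised the share of all protein-coding genes from 0.48% to 1.54%, and 0 without the first 1 kb outside, where the Ect2 region was left out by construction. Of the 37 other cytokinesis genes, 1 had an end score past the cutoff, which is 2.7% beside 3.6% of all protein-coding genes. At a cutoff of 3 the count was 10, which is 27% beside 29.1%. It was 0 at a cutoff of 10, which 0.279% of all protein-coding genes reached. With windows of 2 kb it was 2, which added Cdk1, and the share of all genes for those windows is not given here. The count was not repeated with each read pair counted once. The share of genes with an end score as high as Ect2 ranged from 0.0183% for the mean score to 0.0822% with windows of 2 kb. Among the 983 protein-coding genes of chromosome 3 it was 0.102%, which is Ect2 alone. By the mean number of reads over the end windows, 0.311% of protein-coding genes were as high.

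No paired analysis was possible because no value for a single library is in the track, and for the same reason no library could be left out. Windows on start sites alone were not run, since the annotation used here gives no strand. The track limits what can be said of the 7 genes without a region, as enrichment under 11 reads does not reach the cutoff and 5 to 8 reads have wide counting intervals. Stretches past the cutoff but shorter than 200 bp were not called either, as in the 10 kb outside Prc1 with 14 reads. The interval of the Ect2 summit does not cover the difference between replicates, and an anti-HA signal without TBX3-HA was not measured here.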
